A study of Homo sapiens with 4 samples.

Results

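The keratin genes measured here were the protein-coding members of the KRT family. They were taken as every probe set (row of the array table) whose only platform symbol was KRT followed by a digit. Pseudogenes, antisense genes, KRTAP and KRTCAP were left out. This gave 47 genes on 48 probe sets, out of 14884 named genes and 53617 probe sets in all. The cells were MDA-MB-231Br, breast cancer cells derived from the line MDA-MB-231, which is the name the sample titles give. Both groups carried a lentivirus and had been selected with puromycin: 2 arrays came from cells with a control hairpin (shControl) and 2 from cells with a hairpin against YTHDF3 (shYTHDF3), a cytoplasmic reader of the RNA mark N6-methyladenosine. Neither the hairpin sequence nor any statement on separate cultures is given in the labels, and the p-values therefore cover the spread among these 4 arrays alone, which may be technical. No row had YTHDF3 as its only symbol, and rows with several symbols were not used, so the knockdown was not checked here. The question asked of the keratins was which of them gave a signal in this line and whether any differed between the hairpins.

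Keratins are the intermediate filament proteins of epithelial cells, and their filaments are built from pairs of a type I (acidic) and a type II (basic) chain. Simple epithelia, such as the luminal layer of the breast, make mainly KRT8 and KRT18, with KRT7, KRT19 and KRT20 in some tissues. Basal cells of layered epithelia make KRT5 and KRT14, cells in wounds add KRT6, KRT16 and KRT17, and hair and nails have keratins of their own. MDA-MB-231 is grouped with basal-like, claudin-low breast cancer lines of mesenchymal appearance. Levels are given as the deposited log2 expression values. They are read against the median of all probe sets on the same array, which ran from 3.20 to 3.22, and not against each other, since probe sets differ in how strongly they bind.

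Few keratins gave a signal above the array median. On all 4 arrays 7 of the 47 genes did so: KRT18, KRT19 and KRT8 of the 5 simple keratins, the epithelial keratin KRT80, the hair keratins KRT31 and KRT85, and the wound keratin KRT16. That is 14.9% of the keratins, where 65.0% of all named genes lay above the median on all 4 arrays. Another 11 keratins were above it on some arrays and 29 were below it on every array. The share was alike in the 2 types, with 4 of 26 type I and 3 of 21 type II genes. The count depends on the reference level. Against the median of the named probe sets alone, 4.29 to 4.31, KRT18, KRT19 and KRT80 remained, and against the 75th percentile of all probe sets, 5.12 to 5.16, KRT18 and KRT19.

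**Figure D1:**
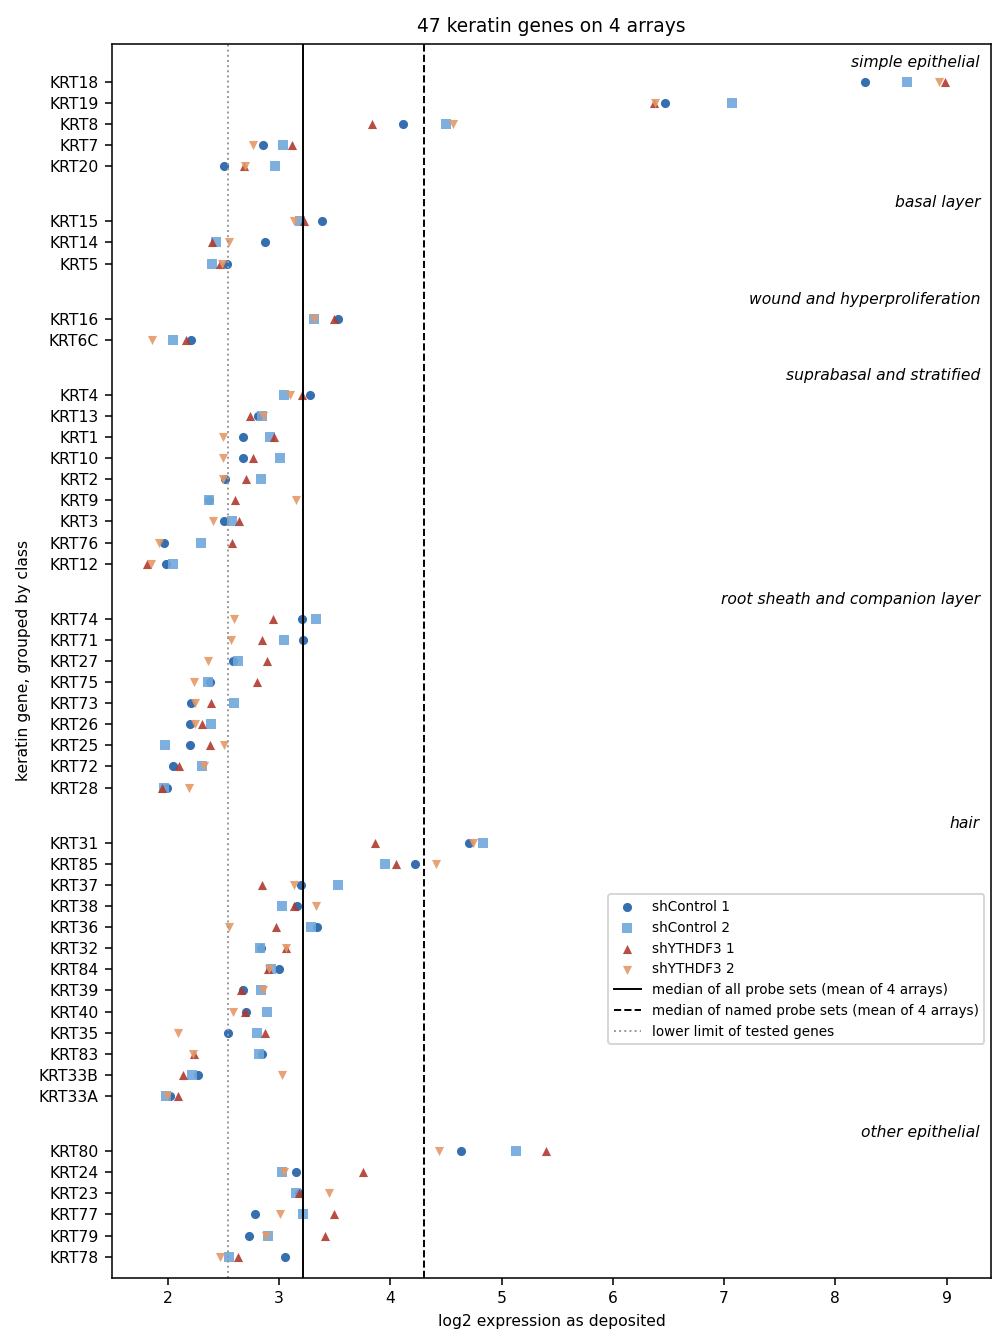
Deposited log2 expression (horizontal axis) of the 47 keratin genes, grouped by class, with 1 point per array (blue, shControl; red and orange, shYTHDF3); vertical lines mark the median of all probe sets, the median of named probe sets and the lower limit of tested genes at 2.54. Only 7 genes have all 4 points to the right of the solid line, and most others crowd around the lower limit.

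KRT18, the type I chain of simple epithelia, had 2 probe sets, both far above the median. The brighter one read 8.26 and 8.64 on the shControl arrays and 8.98 and 8.93 on the shYTHDF3 arrays. The other read 5.49 and 5.65 against 5.93 and 5.76. In both, the 2 shYTHDF3 arrays lay above the 2 shControl arrays. The rows are not equal in what they can be taken for. Row identifiers on this array largely keep chromosomes together, with 98.5% of 16097 consecutive named rows on the same RefSeq chromosome. Order within a chromosome was not checked. The dimmer KRT18 row stands between KRT7 and EIF4B. That stretch of the RefSeq order holds KRT18 itself and many other KRT genes, KRT8 and KRT5 among them. The brighter row stands between CMTM8 and CMTM7, where RefSeq places the pseudogene KRT18P15 and no other KRT gene. These placements rest on neighbouring identifiers alone, and the platform annotation gives both rows the symbol KRT18 and an mRNA record. Whether the brighter row reads KRT18 mRNA, transcripts of the pseudogene or both was not tested. RefSeq lists 68 pseudogenes of KRT18 and 52 of KRT8, so neither gene's signal can be assigned to a single locus with certainty.

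KRT8, the type II partner of KRT18, read 4.12 and 4.50 in shControl and 3.84 and 4.56 in shYTHDF3. The shYTHDF3 arrays enclosed both controls. KRT19, a type I simple keratin that lacks most of the usual tail domain, read 6.47 and 7.07 in shControl and 6.37 and 6.38 in shYTHDF3. One control array was high and the other 3 lay close together. The remaining simple keratins, KRT7 and KRT20, were below the median on every array, with KRT7 at 2.86, 3.04, 3.12 and 2.76 and KRT20 at 2.51, 2.96, 2.69 and 2.69 (shControl 1 and 2, then shYTHDF3 1 and 2, the order used from here on).

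**Figure D2:**
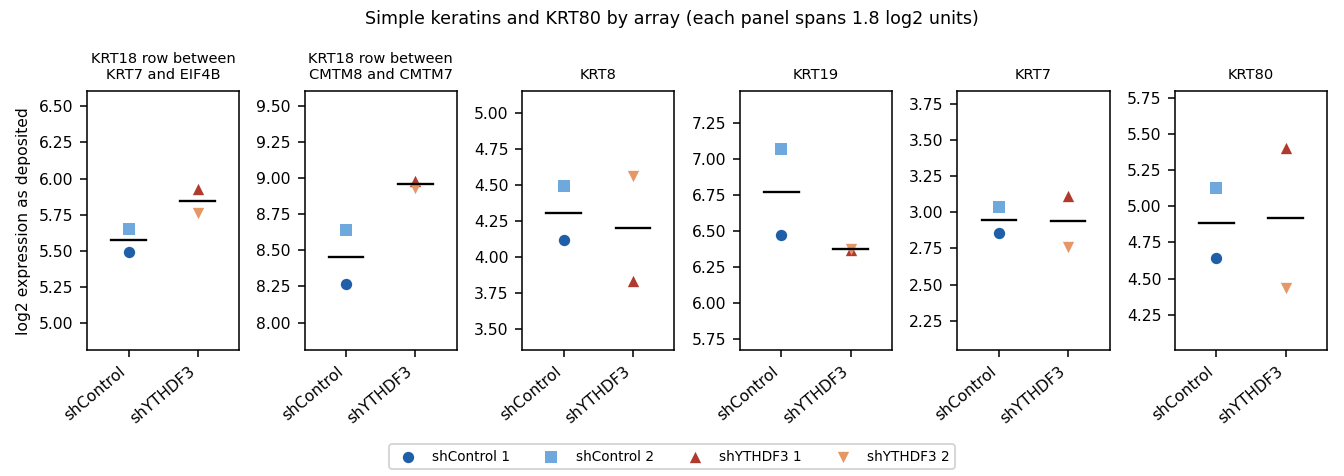
Deposited log2 expression (vertical axis, a different range but the same span in each panel) of both KRT18 probe sets, KRT8, KRT19, KRT7 and KRT80 on the 2 shControl and 2 shYTHDF3 arrays, with each point 1 array and each line a group mean. Both KRT18 rows are higher in the shYTHDF3 arrays, while the points of KRT8, KRT7 and KRT80 overlap between the groups.

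The basal pair gave low values. KRT5 read 2.53, 2.40, 2.47 and 2.48, and KRT14 read 2.87, 2.43, 2.40 and 2.55, all below the median. KRT15, the other basal type I keratin, straddled it at 3.39, 3.19, 3.22 and 3.13. Of the 3 basal markers with a row only EGFR, at 9.89 to 10.1, was above the median, so the basal name of this line was not borne out by KRT5 and KRT14 on these arrays. KRT17, KRT6A and KRT6B were not analysed here, nor were KRT34, KRT81, KRT82, KRT86 and KRT222, which leaves 47 of the 55 protein-coding keratins in RefSeq. Of the luminal markers EPCAM, GATA3 and FOXA1 lay above the median on all 4 arrays and ESR1 below it. All 5 mesenchymal markers with a row lay above the median, with VIM, encoding the mesenchymal filament vimentin, at 9.83, 9.86, 9.88 and 9.90.

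Among the wound keratins KRT16 was the member nearest to the reference level on the upper side, at 3.53, 3.32, 3.49 and 3.31. KRT6C stood at 2.21, 2.05, 2.16 and 1.86. Of the keratins not above the median on all 4 arrays KRT24 had the highest mean, 3.25, and was above it on the first shYTHDF3 array only. KRT80, a type II keratin of many epithelia, read 4.64, 5.13, 5.40 and 4.43, and its 2 shYTHDF3 arrays enclosed both controls. None of the 9 keratins of the suprabasal and stratified layers, among them KRT1 and KRT10 of differentiated epidermis, and none of the 9 root sheath and companion layer keratins was above the median on all 4 arrays. Their means ran from 1.92 to 3.16 and from 2.03 to 3.02.

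Hair keratins were represented by 13 genes. KRT31, a type I keratin of the hair cortex, read 4.71, 4.83, 3.86 and 4.74, so that only the first shYTHDF3 array was low. KRT85, a type II hair keratin, read 4.22, 3.95, 4.05 and 4.41, with partial overlap between the groups. The other 11 had means from 2.02 to 3.17. The near-identical pair KRT33A and KRT33B is among them, and such copies may share probe signal.

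Keratin promoters often carry an A and T rich box shortly before the start site. The 3 windows below, the 250 bases before the RefSeq start (GRCh38.p14), are shown because KRT31 and KRT85 are the members above the array median that have a window at the gene's outer start, and KRT5 is a basal marker that was below the median on every array. Capitals mark TATAAA or ATAAAA on the gene's strand.
KRT31, chr17:41397609-41397858, minus strand: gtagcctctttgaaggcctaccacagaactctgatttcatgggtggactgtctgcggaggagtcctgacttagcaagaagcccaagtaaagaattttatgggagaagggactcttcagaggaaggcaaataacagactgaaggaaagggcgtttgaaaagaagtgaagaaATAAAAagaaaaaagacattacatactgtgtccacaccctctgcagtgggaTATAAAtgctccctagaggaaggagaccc
KRT85, chr12:52367482-52367731, minus strand: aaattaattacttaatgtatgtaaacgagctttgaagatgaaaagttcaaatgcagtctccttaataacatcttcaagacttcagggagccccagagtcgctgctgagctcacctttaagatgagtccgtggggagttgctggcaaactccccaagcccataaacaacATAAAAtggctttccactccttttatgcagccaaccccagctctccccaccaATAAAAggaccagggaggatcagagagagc
KRT5, chr12:52520395-52520644, minus strand: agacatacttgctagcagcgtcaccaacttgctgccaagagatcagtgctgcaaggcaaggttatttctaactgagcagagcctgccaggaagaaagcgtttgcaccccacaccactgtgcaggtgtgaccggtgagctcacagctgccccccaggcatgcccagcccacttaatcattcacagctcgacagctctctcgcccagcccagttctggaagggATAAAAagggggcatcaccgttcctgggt
The last match starts 29 bases before the start site in KRT31, 30 in KRT85 and 29 in KRT5. These letters are thus shared by a keratin above the median and one below it. Of the 47 genes 32 had a window, and TATAAA on either strand was found in 19 of them (59.4%), against 13.0% of 27305 genes in the promoter table. ATAAAA was found in 21 (65.6%, against 17.7%), and at least 1 of these 2 overlapping motifs in 27 (84.4%, against 23.3%). On the gene's strand TATAAA was present in 18 keratins, in 15 of them 25 to 35 bases before the start. Both motifs were chosen after the windows had been read, and a match is a description of the sequence, not of binding.

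No keratin passed the test for a difference between the hairpins. The test took genes with a mean of at least 2.54 (30th percentile over the table), which 33 of the 47 keratins did. Limma with Benjamini-Hochberg adjustment over 12755 genes called 0 of them at an adjusted p under 0.05, where 0.753% of all tested genes were called, and the smallest adjusted p was 0.20. At an unadjusted p under 0.05 there were 5 keratins, 3 lower and 2 higher in shYTHDF3, or 15.2% against 14.7% of all tested genes (8.48% lower, 6.24% higher). Without the filter the count was 7 of 47, against 13.5%, and again 0 passed after adjustment, against 0.450%. The groups did not overlap for 13 of the 47 keratins, or 27.7%, against 43.6% of all named genes. The median log2 difference over the 47 was -0.02, against 0.01 over all named genes. Of the 47, 28 were lower and 19 higher, against 7283 and 7588 of all named genes.

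The spread between arrays of a group was large for these genes. The median gap between 2 arrays of the same group was 0.20 over the keratins and 0.15 over all named genes, and the median size of a difference between group means was 0.14 for both. For the 7 keratins above the median the gap was 0.37. With 2 arrays against 2 a permutation test of a single gene cannot give a 2-sided p below 0.333.

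**Figure D3:**
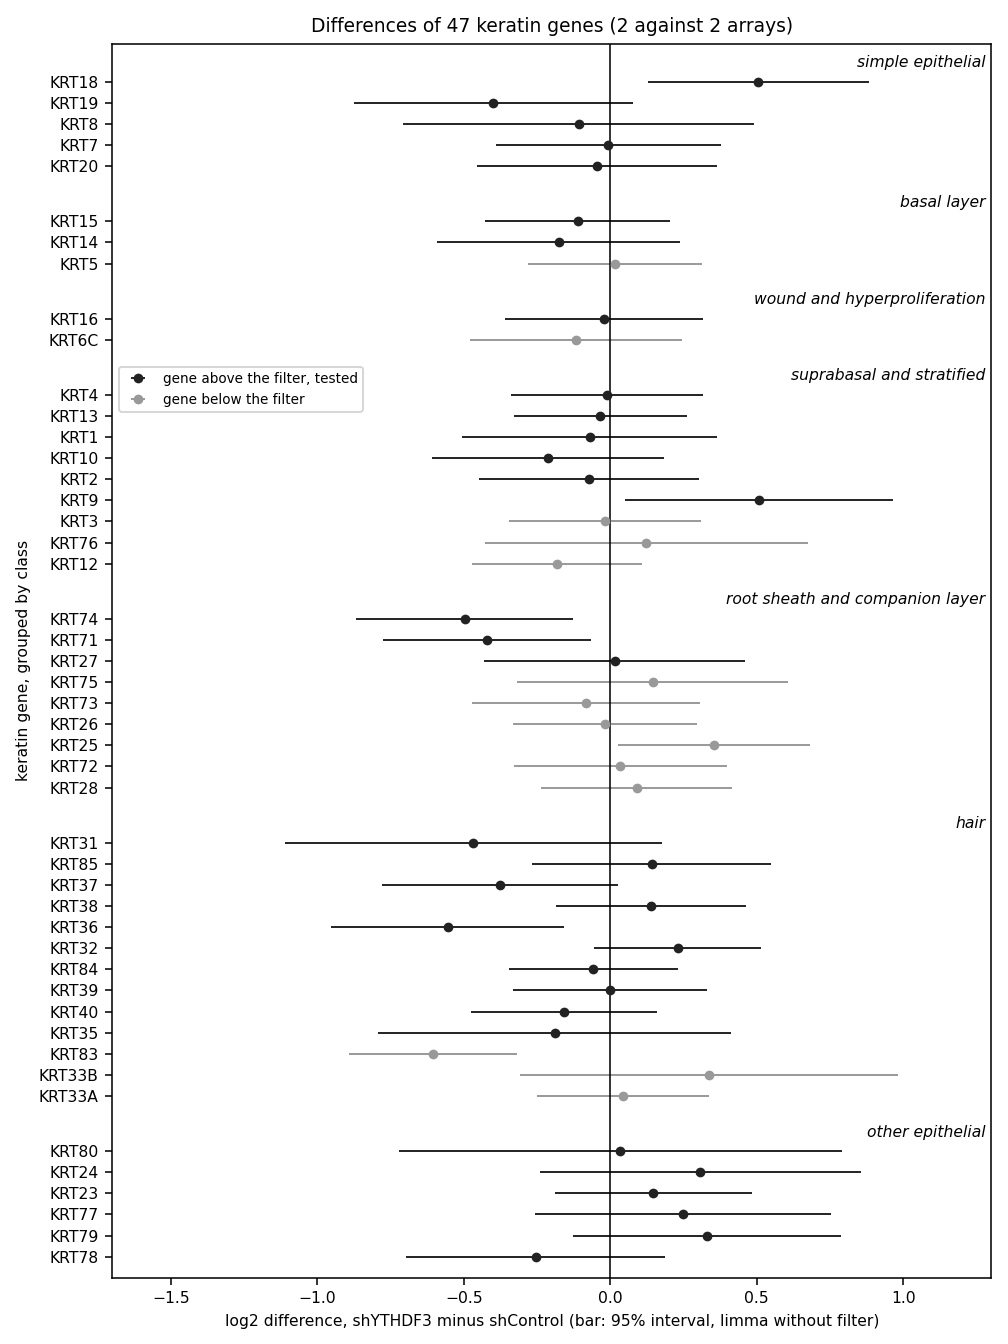
Log2 difference, shYTHDF3 minus shControl (horizontal axis), of the 47 keratin genes with 95% intervals from limma without the filter, by class; black points are genes that were tested and grey points genes below the lower limit. Most intervals cross 0. Those that do not belong to KRT9 at 0.51, KRT18 at 0.50 and KRT25 at 0.35 on the right, and KRT83, KRT36, KRT74 and KRT71 on the left.

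Among the simple keratins the brighter KRT18 row, which identifier order places near KRT18P15, had the smallest p. The dimmer row, placed in the stretch that holds KRT18, came after KRT19 (unadjusted p of 0.085 and 0.084 from limma). The brighter row stood at 8.45 ± 0.27 in shControl and 8.96 ± 0.03 in shYTHDF3 (SD, n = 2 each), so the difference was 0.50 (1.42-fold, 95% interval 0.13 to 0.88) and limma's adjusted p was 0.22. Without shControl replicate 1 it was 0.31, and without shControl replicate 2 it was 0.69. All 4 pairs of a shYTHDF3 with a shControl array were positive, from 0.29 to 0.72. The dimmer row differed by 0.27 (95% interval -0.05 to 0.60, adjusted p = 0.41 from limma), and its 4 pairs were positive too. Over the alternatives that kept all 4 arrays the adjusted p of KRT18 from limma ran from 0.075 to 0.41. KRT8 did not follow, with a difference of -0.11 (95% interval -0.69 to 0.47), an interval that overlaps that of KRT18; the difference between the 2 genes was not tested. KRT19 differed by -0.40 (95% interval -0.87 to 0.07, adjusted p = 0.41 from limma), and without shControl replicate 2 by -0.10. KRT7 and KRT20 had differences of -0.01 and -0.04.

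The basal and wound keratins showed small differences. KRT14 and KRT15 stood at -0.18 and -0.11 and KRT16 at -0.02, each with a 95% interval that included 0. KRT5 and KRT6C were below the filter, with differences of 0.02 and -0.12. KRT80 differed by 0.03 (95% interval -0.69 to 0.76), the widest interval among the keratins tested.

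The smallest p-values on the lower side belonged to hair and root sheath keratins of weak signal. KRT36, a type I hair keratin, read 3.34, 3.29, 2.97 and 2.55, which is a difference of -0.55 (95% interval -0.95 to -0.16; limma's adjusted p = 0.20). KRT74 and KRT71, type II keratins of the inner root sheath, read 3.21, 3.33, 2.95 and 2.60, and 3.22, 3.04, 2.84 and 2.57. Their differences were -0.50 and -0.42. KRT37 had a difference of -0.38. Single arrays moved these values: KRT37 was at -0.21 without shControl replicate 2 and -0.23 without shYTHDF3 replicate 1. Without shYTHDF3 replicate 2 KRT36 was at -0.34, KRT74 at -0.32 and KRT71 at -0.28. In all 4 genes both shYTHDF3 arrays were below both controls, yet none lay above the array median on every array and none passed. The 4 were picked for their small p, which favours such separation. In either direction the groups did not overlap for 43.6% of all named genes. KRT83, a type II hair keratin named after its values were seen, read 2.85, 2.82, 2.24 and 2.22. The arrays of each group differed by less than 0.05, and its difference of -0.60 had the smallest p of all keratins when no filter was applied (adjusted p = 0.12 from limma). Its mean of 2.53 lay just under the filter, and all 4 values were below the array median, where weak signals are compressed. KRT31 differed by -0.47 (95% interval -1.09 to 0.15), and without shYTHDF3 replicate 1 by -0.03.

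Among the keratins tested, KRT9, KRT32 and KRT79 had the smallest p on the upper side besides the brighter KRT18 row. KRT9, the keratin of palm and sole epidermis, read 2.37, 2.37, 2.60 and 3.15, a difference of 0.51 (limma's adjusted p = 0.29). KRT32, a hair cuticle keratin, read 2.83, 2.82, 3.06 and 3.06. KRT79 read 2.73, 2.90, 3.41 and 2.88, with 1 shYTHDF3 array alone above the rest. Hair keratins as a class had 8 genes lower and 5 higher with a median of -0.06, and the suprabasal class had 7 lower and 2 higher with a median of -0.03. The root sheath class had 4 lower and 5 higher, with a median of 0.01. The simple class had 4 lower and 1 higher with a median of -0.04. The 6 other epithelial keratins had 1 lower, 5 higher and a median of 0.20, but the groups overlapped in each of them. KRT24, KRT77, KRT79 and KRT80 were above both controls on the first shYTHDF3 array only, and KRT23 on the second only. Of all named genes 7283 were lower and 7588 higher.

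The keratin-associated proteins, KRTAP, form the matrix between keratin filaments in hair and are a separate family. Of 85 KRTAP symbols, 84 of them protein-coding, 49 were tested. Of these 2 fell, or 4.08% against 0.666% of all tested genes, and 0 rose, against 0.0862%. KRTAP4-8 read 6.28, 6.35, 3.38 and 3.35, and fell 7.75-fold (adjusted p = 0.0004 from limma). KRTAP2-3 read 9.89, 9.70, 8.75 and 8.98, and fell 1.90-fold (adjusted p = 0.046 from limma). Next by p came KRTAP5-3 and KRTAP20-1, with differences of 1.09 and -0.61 and adjusted p-values of 0.093 and 0.13 from limma. KRTAP4-8 and KRTAP2-3 belong to subfamilies of near-identical copies, so the probe sets may read more than 1 gene. Without the filter, and with a replicate block, only KRTAP4-8 passed. The pairs of a shYTHDF3 with a shControl array ran from -3.00 to -2.91 for KRTAP4-8 and from -1.13 to -0.72 for KRTAP2-3. The median over the 85 was -0.01, with 46 lower and 39 higher, and the other 47 tested members did not pass.

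Genes that anchor or accompany keratin filaments gave 0 calls with limma. Desmosomes tie keratin filaments to the cell border. Of 19 desmosome and plakin genes 12 were above the array median on all 4 arrays. That is 63.2%, close to the 65.0% of all named genes. None of 16 tested passed, with 2 higher and 1 lower at an unadjusted p under 0.05, or 18.8% against 14.7% of all tested genes. DSC2, a desmosomal cadherin, read 5.00, 4.93, 5.57 and 5.41 (difference 0.53). PLEC, the linker plectin, and DST, the linker dystonin, had differences of 0.44 and -0.37, and the cadherin DSG4, below the median on every array, of 0.37. DSP, desmoplakin, named after its values were seen because it binds keratins directly, read 8.29, 8.23, 8.08 and 7.92 (difference -0.26, 95% interval -0.57 to 0.05).

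Of the other intermediate filament genes 8 had a row and 0 passed, with 2 higher at an unadjusted p under 0.05, or 25% against 6.24% higher among all tested genes. LMNB1, encoding the nuclear lamin B1, read 8.13, 8.05, 8.77 and 8.52, a difference of 0.55 (limma's adjusted p = 0.15), and it passed only where the prior variance followed intensity. LMNB2 differed by 0.41, PRPH by 0.19 and DES by -0.16. VIM differed by 0.05 (95% interval -0.25 to 0.34). Among 17 epithelial regulators 0 passed, with 1 higher and 3 lower at an unadjusted p under 0.05, or 23.5% against 14.7%. The factor TFAP2C differed by 0.62, and the repressors of epithelial genes ZEB1 and SNAI1 by -0.47 and -0.45, with KLF4 at -0.44. The repressor SNAI2, named after its values were seen, differed the other way by 0.22, at 9.18, 9.23, 9.43 and 9.43. Keratin binding and turnover genes had 5 rows, of which 4 were tested and none passed, with 0 at an unadjusted p under 0.05. SFN, the keratin-binding adaptor stratifin, had the largest difference of these at 0.45. The 1 hemidesmosome gene with a row, CD151, differed by -0.19.

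**Figure D4:**
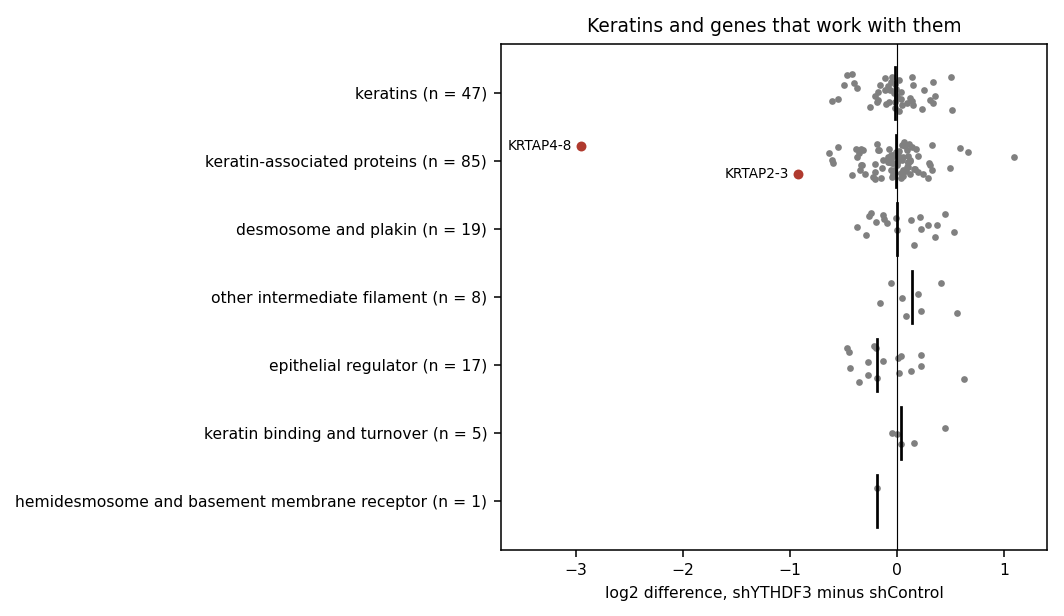
Log2 difference, shYTHDF3 minus shControl (horizontal axis), of the keratins and of 6 lists of genes that work with them, with 1 point per gene, red points past an adjusted p of 0.05 in limma and a black line at each list's median. The 2 red points are KRTAP4-8 and KRTAP2-3, and no keratin is among them.

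Markers of other cells were read in the same way. Fibroblast and leukocyte markers had only CD14, at 2.57 to 2.96, and CD68, at 10.4 to 10.7, among 8 listed. Mesenchymal FN1 fell in shYTHDF3 (adjusted p = 0.012 from limma) and was the only 1 of the 5 mesenchymal markers to pass, or 20% against 0.666% of all tested genes called lower. At an unadjusted p under 0.05 there were 3 of the 5 lower, or 60% against 8.48%, with LOX at -0.74 (adjusted p = 0.071 from limma) and ZEB1 as the others. ZEB1 is counted among the epithelial regulators too. The marker lists were chosen with earlier results of these data known, so these shares only describe the lists. Of the 5 squamous markers with a row KRT1, KRT10, IVL and SPRR1B were below the median on all arrays, and FLG, at 3.21, 3.55, 3.57 and 3.49, was above it on all 4. In bulk RNA fewer cells of a type and less RNA per cell cannot be told apart, and the part of any such change in the keratin values was not tested.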

How the data were processed

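The table the authors deposited holds log2 expression, with a column for each array. The submitters' processing notes name RMA, with no version or settings, and the genome build of the array is not given. RMA normalizes between arrays and compresses weak signals. Detection calls were not used. Precision is limited by having 4 arrays. Symbols came from the platform annotation. Probe sets with no symbol or with several symbols were treated as unnamed, 37519 of 53617 in all. A gene said to have no row may thus be on a probe set with several symbols. All 47 keratin symbols matched RefSeq by Entrez identifier. Where a gene had several probe sets, the one of highest mean was taken. The groups were tested with limma (3.58.1, R 4.3.3; lmFit, then eBayes; 2-sided; no covariates) over all genes whose mean was at or above the 30th percentile, followed by Benjamini-Hochberg adjustment. The fit was tested on simulated data. Intervals are 95%. Sequences are RefSeq's, build GRCh38.p14.

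The keratins, their classes and the lists of partner and marker genes were chosen with earlier results of these data known. Named by rule were keratins above the median on all arrays, keratins passing the test, the 4 of smallest p in each direction, the simple, basal and wound keratins, and from each list the genes passing and up to 4 of smallest p. Alternatives covered the filter, probe set rule, normalization, variance model, a replicate block and leaving out each array.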

Additional observations from a re-analysis of the deposited data

How the results depend on the processing

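No keratin passed limma's test under any alternative that kept all 4 arrays. These covered filter, probe set rule, normalization, variance model, block, threshold and the choice of KRT18 row, the last of which was added after seeing the data. Fits with 1 array left out cannot decide whether a gene passes, because 1 group then has no spread of its own. Only their differences are used. The keratins above the reference level on all 4 arrays numbered 7 against the median of all probe sets, 3 against the median of named probe sets and 2 against the 75th percentile. The 2 calls among partner genes became 1 without the filter, 4 with an intensity trend (KRTAP5-3 and LMNB1 added) and 1 with the replicate block, and ran from 0 to 1 with 1 array left out. The replicate numbers gave no sign of pairing (correlation of deviations 0.04), and the block called 11 genes of all, against 96. With 1 array left out, the lone array of a group is assumed to vary like the other group. Changing the filter or the variance model, or adding the block, cannot alter a difference, so agreement there was fixed in advance. The probe set rule could alter only KRT18. Values of 205 named keratins and settings, these included, kept their direction in 195. The 10 that turned all left out 1 array: KRT7 ran from -0.18 to 0.17, KRT8 from -0.47 to 0.25, KRT16 from -0.13 to 0.085, KRT20 from -0.27 to 0.18, KRT80 from -0.45 to 0.52 and KRT85 from -0.041 to 0.32. The median over the keratins ran from -0.10 to 0.03 over the alternatives.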

Other observations

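Pseudogene rows, which the keratin comparison left out, numbered 7, and 4 of them were above the array median on all 4 arrays. KRT16P2 read 6.44, 6.54, 6.28 and 6.31 (shControl 1 and 2, then shYTHDF3 1 and 2), KRT18P55 read 4.80, 4.70, 4.86 and 4.60, KRT17P5 read 3.77, 3.88, 3.70 and 3.94, and KRT42P read 3.88, 3.55, 3.97 and 4.01. The KRT18P55 and KRT17P5 values overlapped between the groups. For KRT16P2 both shYTHDF3 arrays were below both controls, by 0.20 between the means, and for KRT42P both were above them, by 0.28. These rows can share sequence with their parent genes, so they are not independent of the keratin values.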
